A study of Mus musculus with 27 samples.

Results

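Core outputs of the circadian clock were followed in mouse muscle during repair. The 10 genes Per1, Per2, Per3, Cry1, Cry2, Nr1d1, Nr1d2, Dbp, Tef and Ciart were chosen by name, and each was found as 1 entry among the 55852 entries of the injured table and the 55677 entries of the control table. The 24 injured libraries were from muscle that received CTX (cardiotoxin, a venom peptide that lyses muscle fibres) and were taken from male WT C57BL/6J mice or Gsdme KO mice at 4 times after injection, namely D1, D4, D7 and D14, with 3 libraries for each genotype at each time. Control muscle of WT mice, gave the remaining 3 libraries, and the study's methods describe it as the uninjured muscle of the opposite leg of injured mice. Sequencing was done in 2 batches by those methods, the first comparing uninjured with injured muscle at 24 h and the second holding both genotypes over the 4 times, and which of them held the WT D1 libraries is not said. Gsdme encodes gasdermin E, which forms membrane pores after caspase cleavage, and the study describes its KO as global rather than limited to a cell type. The titles name these mice KO whereas the genotype field reads knockdown, and the sources name both thigh and gastrocnemius muscle. The age of the mice and the hour at which muscle was taken are not given in the sources used here. The control libraries contain no KO mice, so that uninjured KO muscle was not analysed here.

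The circadian clock is a transcriptional feedback loop that runs in nearly every cell, muscle fibres included. The activators CLOCK (or NPAS2) and BMAL1, encoded by Arntl, bind E-boxes and raise the transcription of the Per, Cry, Nr1d, Dbp, Tef and Ciart genes, and the PER and CRY proteins then repress their own activators. REV-ERB alpha and beta, encoded by Nr1d1 and Nr1d2, repress Arntl, so that Arntl transcripts normally peak when those of Dbp and Nr1d1 are low. DBP and TEF activate genes through D-boxes and NFIL3 opposes them there. The relation of these transcripts to each other therefore changes over the hours of a day, and the question was whether groups of libraries differed in it.

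Promoter sequences are shown because E-boxes and D-boxes are the elements through which this loop is known to act. RefSeq (GRCm38.p6) promoter windows were available for 9 of the 10 members, 11 windows in all, and the 250 bases before each start were searched on both strands. The E-box CACGTG, which reads the same on both strands, was found before the start of 4 members (Per1, Cry1, Tef and Ciart) and in 6.02% of the 32851 windows of that length. The related sequence CACGTT was found for 3 members (Cry1, Cry2 and Nr1d1) and in 3.85% of windows, and the D-box TTATGTAA was found for Per3 and in 0.819%. The nuclear receptor core AGGTCA was found for Per1 and Nr1d2 and in 14% of windows, and the cAMP response element TGACGTCA was found for no member and in 1.55%. None of these matches overlapped another. A match describes letters in a window and is not evidence of binding. The windows with E-boxes or D-boxes are given 5′ to 3′ on the strand of the gene, with these motifs in capitals. Ciart has 3 E-boxes (chr3:95882229-95882478, minus strand) and Per3 has 2 D-boxes (chr4:151044666-151044915, minus strand).
Ciart: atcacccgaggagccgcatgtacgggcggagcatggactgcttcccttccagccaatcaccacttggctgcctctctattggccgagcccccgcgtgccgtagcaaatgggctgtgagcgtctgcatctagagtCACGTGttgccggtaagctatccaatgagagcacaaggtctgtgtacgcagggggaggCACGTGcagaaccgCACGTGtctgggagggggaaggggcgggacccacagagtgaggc
Per3: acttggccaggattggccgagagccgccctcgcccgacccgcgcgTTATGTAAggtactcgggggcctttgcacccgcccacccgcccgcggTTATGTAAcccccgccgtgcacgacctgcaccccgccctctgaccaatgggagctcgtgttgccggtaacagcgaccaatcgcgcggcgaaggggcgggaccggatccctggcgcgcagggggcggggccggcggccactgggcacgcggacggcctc
Shorter stretches show the elements of Per1 (chr11:69098753-69098820, plus strand, before a start that lies inside the gene), Cry1 (chr10:85185077-85185163, minus strand), Cry2 (chr2:92434198-92434265, minus strand), Nr1d1 (chr11:98775378-98775435, minus strand) and Tef (chr15:81811246-81811313, plus strand, before an inner start). Another Tef window, before its outer start, also holds an E-box and is not shown.
Per1: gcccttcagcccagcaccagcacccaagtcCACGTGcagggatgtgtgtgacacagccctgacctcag
Cry1: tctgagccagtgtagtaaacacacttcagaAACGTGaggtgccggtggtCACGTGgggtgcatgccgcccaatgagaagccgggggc
Cry2: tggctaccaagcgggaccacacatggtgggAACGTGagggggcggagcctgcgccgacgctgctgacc
Nr1d1: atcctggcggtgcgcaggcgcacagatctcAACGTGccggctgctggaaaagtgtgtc
Tef: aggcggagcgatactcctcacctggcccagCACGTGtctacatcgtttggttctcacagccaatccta

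The deposited values were TPM (a transcript abundance per unit of gene length, expressed as a share of its library). Such shares do not retain how many reads were sequenced, and library depth is unknown. Between 12329 and 14704 genes had at least 1 TPM in the injured libraries, and from 25.4% to 61.4% of a library's TPM lay in its 50 most abundant genes. Gsdme was 3.59 ± 1.11 TPM (SD, n = 3) in WT D1 and 1.66 ± 0.459 in KO D1, overlapped between genotypes only on D14. The fibre genes that define skeletal muscle were present in every group, with a summed TPM of 10 markers of at least 32780. The WT D1 libraries were in both tables, which were quantified separately, and member values differed by at most 3.55% between them. Differences were tested with limma on log2(TPM + 1) within 1 table, over 15718 genes of the injured table and 13041 of the control table, and a gene with a Benjamini-Hochberg adjusted p under 0.05 over all of these was called.

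In control muscle, Tef and Nr1d1 were the most abundant members and Per3, Ciart and Per2 the least. On the TPM scale, which is per length, Tef was 94.1 ± 8.68 and Nr1d1 88.4 ± 10.6, whereas Per3 was 1.85 ± 0.365, Ciart 1.87 ± 0.544 and Per2 2.03 ± 0.635 (SD, n = 3). All 10 members passed the filter on low values in both tables. The plot of TPM by library shows each member in each of the 9 groups.

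**Figure D1:**
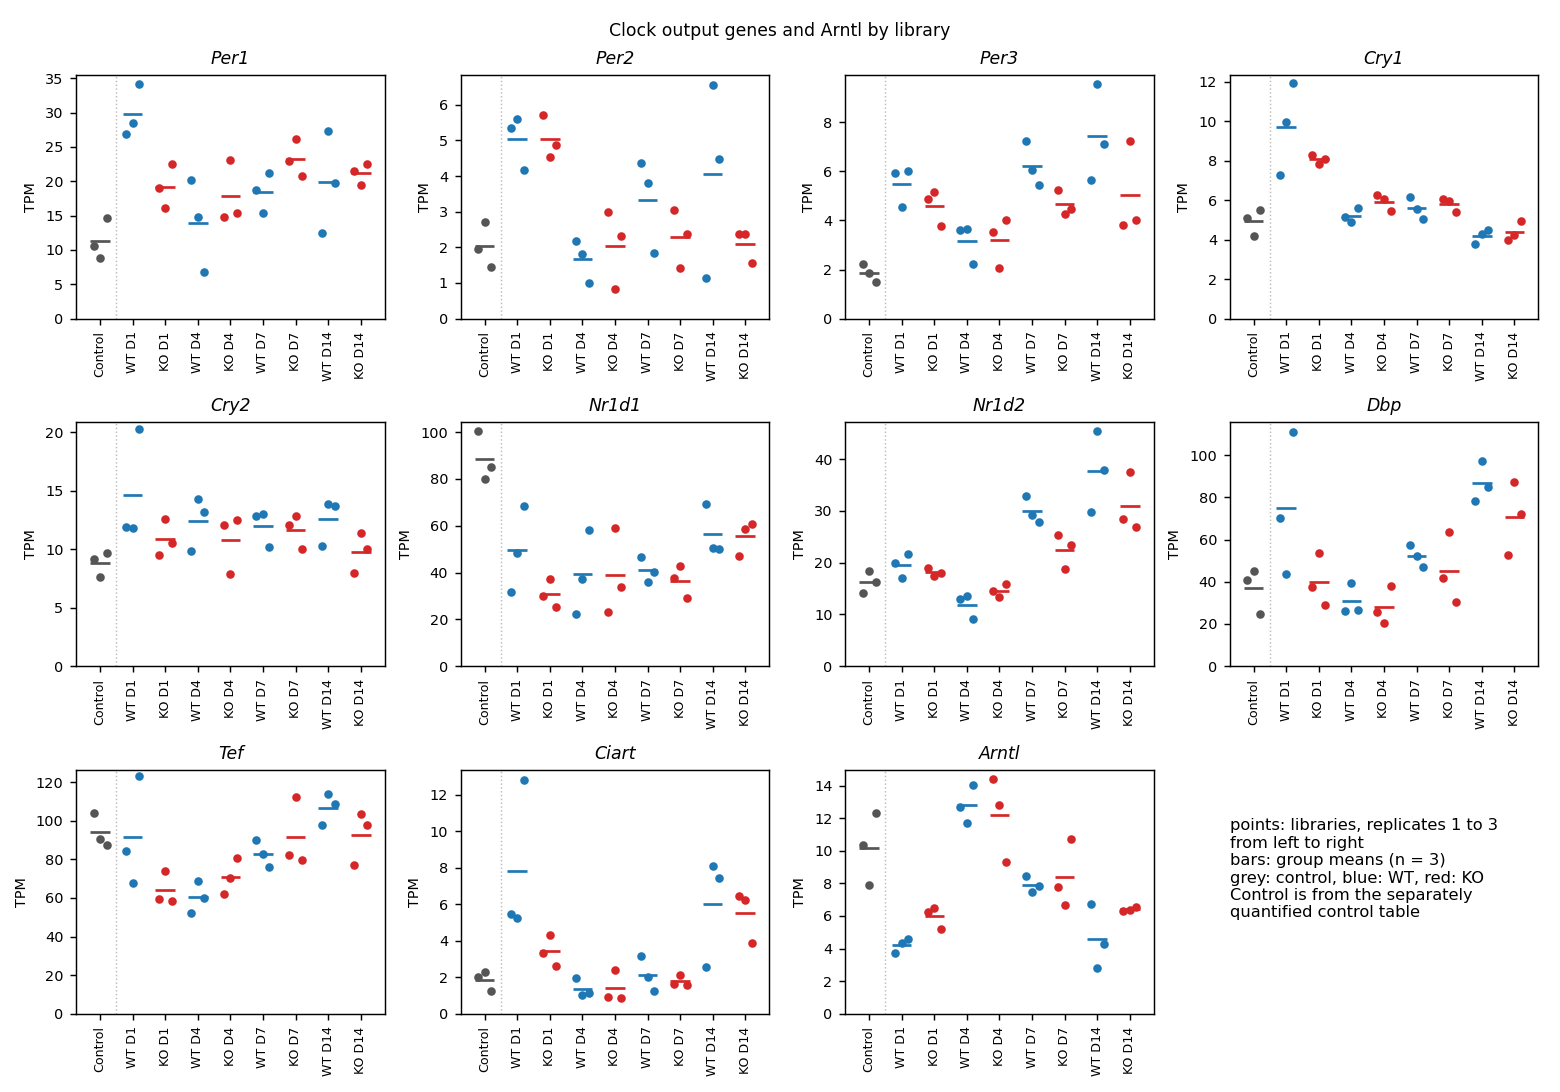
TPM of the 10 clock output genes and Arntl in each library (points, replicates 1 to 3 from left to right) with group means (bars, n = 3), for control (grey, from the separately quantified control table), WT (blue) and KO (red). Nr1d1 was between 79.9 and 100 TPM in the control libraries and Arntl was between 11.7 and 14 TPM in the WT D4 libraries.

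To see how injury changed the clock outputs within a day, WT D1 muscle was compared with control muscle. The Per and Cry genes, Dbp and Ciart were higher in TPM on D1 and Nr1d1 was lower. Of the 10 members, 7 were called higher and 1 lower, in a comparison where 61.1% of all genes were called, 55.4% higher and 5.64% lower. The median difference on the log2 scale was 0.891 over the members and 0.663 over all tested genes, so the count of higher members is close to what the table as a whole shows.

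Per1, a repressor that also responds to acute signals, was 10.6, 8.8 and 14.7 TPM in control libraries and 27.4, 28.9 and 35 TPM in WT D1. All D1 libraries were higher, and the difference was 1.37 on the log2 scale (SE 0.218, adjusted p = 0.00236, limma). Ciart, which encodes the repressor CHRONO, was 2.03, 2.31 and 1.26 TPM in control and 5.49, 5.24 and 12.8 on D1, without overlap (1.54, SE 0.336, adjusted p = 0.00599, limma). Per2 (1.01), Per3 (1.16) and Cry1 (0.84) rose on the log2 scale without overlap, as did Cry2 (0.64, adjusted p = 0.0481, limma), which was not called with the replicate block (adjusted p = 0.0605, limma). Dbp, an activator at D-boxes, rose by 0.94 (adjusted p = 0.0448, limma) although its libraries overlapped, with 41.1, 45.2 and 24.5 TPM in control and 69.7, 43.5 and 110 on D1. Nr1d2 was 16.2 ± 2.12 TPM in control and 19.6 ± 2.43 on D1, and Tef was 94.1 ± 8.68 and 92.1 ± 28.8 (SD, n = 3), and neither was called.

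Nr1d1, the REV-ERB alpha gene, went the other way. It was 100, 79.9 and 85.1 TPM in control and 31, 47.9 and 67.6 on D1. Each D1 library was below each control library, and the difference was -0.91 (SE 0.268, adjusted p = 0.0192, limma). Nr1d1 shares 263 exon bases with Thra on the opposite strand and Dbp shares 539 with Sphk2, and since strand use was not stated, reads of these pairs cannot be told apart there. Cry2 shares 295 exon bases with the antisense gene D930015M05Rik and Tef shares 193 with Gm17597, and the same limit holds for them.

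Among the activators, Arntl fell from 10.4, 7.91 and 12.3 TPM in control to 3.71, 4.37 and 4.61 on D1, without overlap (-1.08, SE 0.219, adjusted p = 0.00469, limma). Clock rose by 0.90 (adjusted p = 0.00955, limma), and Npas2 was 1.3 ± 0.731 TPM in control and 0.92 ± 0.563 on D1 and was not called. Arntl and Nr1d1 were thus lower together, although NR1D1 is a repressor of Arntl. Of the further D-box and E-box factors, Bhlhe40, a repressor at E-boxes, rose by 1.17 (adjusted p = 0.00264, limma), whereas Nfil3 was 26.3 ± 8.06 TPM in control and 22.5 ± 2.26 on D1. Of the genes of clock protein turnover, Csnk1d, a kinase of PER, rose by 1.08. Of 12 genes under clock control in muscle 4 were higher and 4 lower, with Tspan4 (2.40) and Myod1 (2.00) rising and Pdk4 (-1.88) and Ucp3 (-1.35) falling.

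Because TPM values are shares, the calls depended on the scaling. With median-of-ratios scaling the median of all genes moved from 0.663 to 0.056 on the log2 scale. Only Per1 (0.68) and Nr1d1 (-1.62) were then called, where 42.5% of all genes were. With quantile normalization only Nr1d1 was called (-1.48), where 40.1% of all genes were. Arntl was called lower under both, by -1.70 and -1.84. Without control replicate 1, control replicate 2 or WT D1 replicate 1, 5 members were called. The share of all genes called in these fits is not given here. The fibre markers and leukocyte markers moved in the same comparison: their summed TPM was 148700 to 159200 and 149 to 195 in control and 71030 to 151800 and 857 to 4301 on D1, and 3 of 10 fibre genes were called lower and 10 of 10 leukocyte genes higher. Fewer cells of a type and less RNA per cell cannot be told apart in such samples, and the part of these shifts in the members' differences was not tested. If the WT D1 libraries were of the other batch than control, batch and injury cannot be told apart here.

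**Figure D2:**
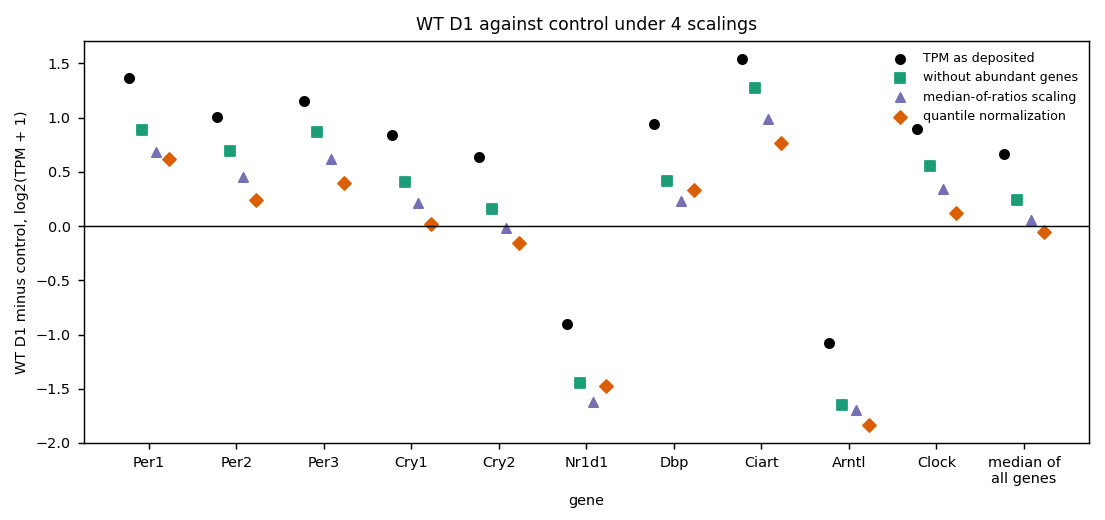
Difference between WT D1 and control (log2 scale, vertical axis) for the 8 called members, Arntl and Clock, and for the median of all tested genes, under TPM as deposited and 3 other scalings (symbols). The median of all genes moved from 0.663 to -0.05, and Nr1d1 and Arntl stayed below 0 under the 4 scalings whereas Cry2 crossed it.

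The course of repair in WT muscle was then followed between neighbouring days of the injured table. From D1 to D4, 7 of the 10 members fell and no member was called higher, where 5.27% of all genes were called lower. The median difference was -0.728 on the log2 scale for the members and 0.175 for all genes. All 10 members had lower means on D4. If the WT D1 libraries were of the other batch than WT D4, batch and day cannot be told apart in this step.

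Ciart showed the largest fall, from 5.49, 5.23 and 12.8 TPM in WT D1 to 1.96, 1.03 and 1.12 in WT D4 (-1.82, SE 0.36, adjusted p = 0.0016, limma). No D4 library reached the lowest D1 library. Per1 fell from 26.9, 28.4 and 34.2 TPM to 20.1, 14.8 and 6.81 (-1.16, adjusted p = 0.00799, limma), and Per2 from 5.34, 5.59 and 4.18 to 2.19, 1.8 and 1.01 (-1.20, adjusted p = 0.0283, limma). Both were separated between the days, although Per1 varied between the WT D4 libraries. Cry1, a strong repressor of the activators, fell by 0.76 on the log2 scale (adjusted p = 0.00114, limma) and Nr1d2 fell by 0.69 (adjusted p = 0.00837, limma). Dbp fell from 70.1, 43.5 and 111 TPM to 26.2, 39.5 and 26.6, without overlap (-1.18, adjusted p = 0.013, limma), and Tef fell by 0.56 with overlap (adjusted p = 0.0467, limma). Per3, Cry2 and Nr1d1 were not called, and Nr1d1 was 49.5 ± 18.5 TPM on D1 and 39.3 ± 18.2 on D4.

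Arntl rose over the same step from 3.71, 4.36 and 4.59 TPM to 12.7, 11.7 and 14, without overlap (1.40, SE 0.21, adjusted p = 0.000209, limma). Npas2 rose by 1.29 (adjusted p = 0.00219, limma). Clock was 4.7 ± 0.991 TPM on D1 and 4.06 ± 1.4 on D4 and was not called. Hlf, the third PAR bZIP factor, fell by 1.07 (adjusted p = 0.00431, limma). The summed TPM of the fibre markers was 70590 to 150600 on D1 and 32780 to 70700 on D4, with 6 of 10 genes called lower, and that of leukocyte markers was 857 to 4297 and 2572 to 5469. The part of these shifts was not tested. With median-of-ratios scaling, which moved the median of all genes from 0.175 to 0.002, Per3 was called in place of Tef. In that fit 23.7% of all genes were called. When only these 2 groups were fitted or libraries were weighted by quality, 2 members were called (7.4% and 17.3% of all genes). Without WT D4 replicate 3, which had the lowest Per1, 4 members were called. The share of all genes is not given for that fit.

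From D4 to D7, Nr1d2 and Per3 rose in WT muscle, where 3.04% of all genes were called higher. Nr1d2 went from 13, 13.5 and 9.04 TPM to 32.8, 29.1 and 27.9 (1.28, SE 0.174, adjusted p = 0.00129, limma), with every D7 library at least 27.9. Per3 went from 3.63, 3.65 and 2.24 TPM to 7.22, 6.05 and 5.43, also without overlap (0.81, adjusted p = 0.0337, limma). Dbp was 30.8 ± 7.6 TPM on D4 and 52.1 ± 5.28 on D7, and Tef was 60.4 ± 8.34 and 82.9 ± 7.07, without overlap and not called. Arntl was 12.8 ± 1.15 TPM on D4 and 7.92 ± 0.521 on D7, without overlap (adjusted p = 0.055, limma). With median-of-ratios scaling the median of all genes moved from -0.244 to -0.008. The same members, Per3 and Nr1d2, were called, where 11.6% of all genes were. The count of called members was 1 without WT D4 replicate 1 or 3 or any single WT D7 library. No share of all genes is given for these fits. The count was 4 with quantile normalization, under which 14.4% of all genes were called. It was 8 with quality weights, under which 67.4% of all genes were called. The summed TPM of the fibre markers was 32780 to 70700 on D4 and 87690 to 96010 on D7, with 2 of 10 genes called higher, and that of leukocyte markers was 2572 to 5469 and 1299 to 1782, with 0 of 10 called. The part of these shifts was not tested.

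From D7 to D14, 1 member, Ciart, was called, where 0.923% of all genes were called higher. Ciart was 3.15, 1.99 and 1.25 TPM on D7 and 2.58, 8.08 and 7.44 on D14 (1.10, SE 0.36, adjusted p = 0.0293, limma), and D14 replicate 1 lay within the D7 range. No member was called without any 1 of the WT D7 libraries, WT D14 replicate 2 or WT D14 replicate 3. For these fits the share of all genes is not given. With median-of-ratios scaling, under which the median of all genes moved from -0.449 to -0.055, Per3, Nr1d2, Dbp, Tef and Ciart were called. In that fit 14.8% of all genes were called. Dbp was 57.4, 52.1 and 46.8 TPM on D7 and 78.1, 97.2 and 85.2 on D14, separated but not called in TPM (adjusted p = 0.0838, limma). Arntl fell from 8.48, 7.45 and 7.83 TPM to 6.76, 2.79 and 4.25 (-0.73, adjusted p = 0.0178, limma) and Npas2 fell by 1.16 (adjusted p = 0.00862, limma). The leukocyte markers summed to 1299 to 1782 TPM on D7 and 160 to 560 on D14, with 8 of 10 genes called lower. Of other lists, 6 of 6 proliferation, 4 of 6 endothelial and 4 of 8 fibro-adipogenic progenitor genes were also called lower. In this step 31.8% of all genes were called in either direction. The fibre markers went from 87690 to 96010 TPM on D7 to 109500 to 111600 on D14, with 0 of 10 called. The part of these shifts was not tested.

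In KO muscle no member was called in any step between days. The background was 19.4% from D1 to D4, 0% from D4 to D7 and 0.56% from D7 to D14, and at an unadjusted p under 0.05 the limma counts of members were 3, 1 and 3, where 36.4%, 9.89% and 19.3% of all genes passed. In the first step these were Per2 (5.03 ± 0.619 TPM on D1 and 2.05 ± 1.1 on D4, adjusted p = 0.0527), Cry1 and Ciart. In the second it was Nr1d2 (14.5 ± 1.28 and 22.5 ± 3.44 TPM), and in the third Cry1, Nr1d2 and Ciart (1.77 ± 0.32 TPM on D7 and 5.51 ± 1.41 on D14). With quality weights 5 members were called from D7 to D14, where 50% of all genes were. From D1 to D4, 1 member was called when either KO D4 replicate 1 or the second replicate was left out. No share of all genes is given there. Arntl rose in KO muscle from 6.27, 6.51 and 5.22 TPM on D1 to 14.4, 12.8 and 9.32 on D4 (0.90, adjusted p = 0.00749, limma). Leukocyte markers summed to 3318 to 7186 TPM in KO D1 and 435 to 3608 in KO D4, with 5 of 10 genes called lower. Fibre markers summed to 56030 to 80700 and 53410 to 116000, with 0 of 10 called. KO D4 replicate 2, also used in the D4 comparison of genotypes, had the lowest leukocyte sum and the highest fibre sum of its group. No gene of either list was called in the later KO steps. The part of these shifts was not tested.

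**Figure D3:**
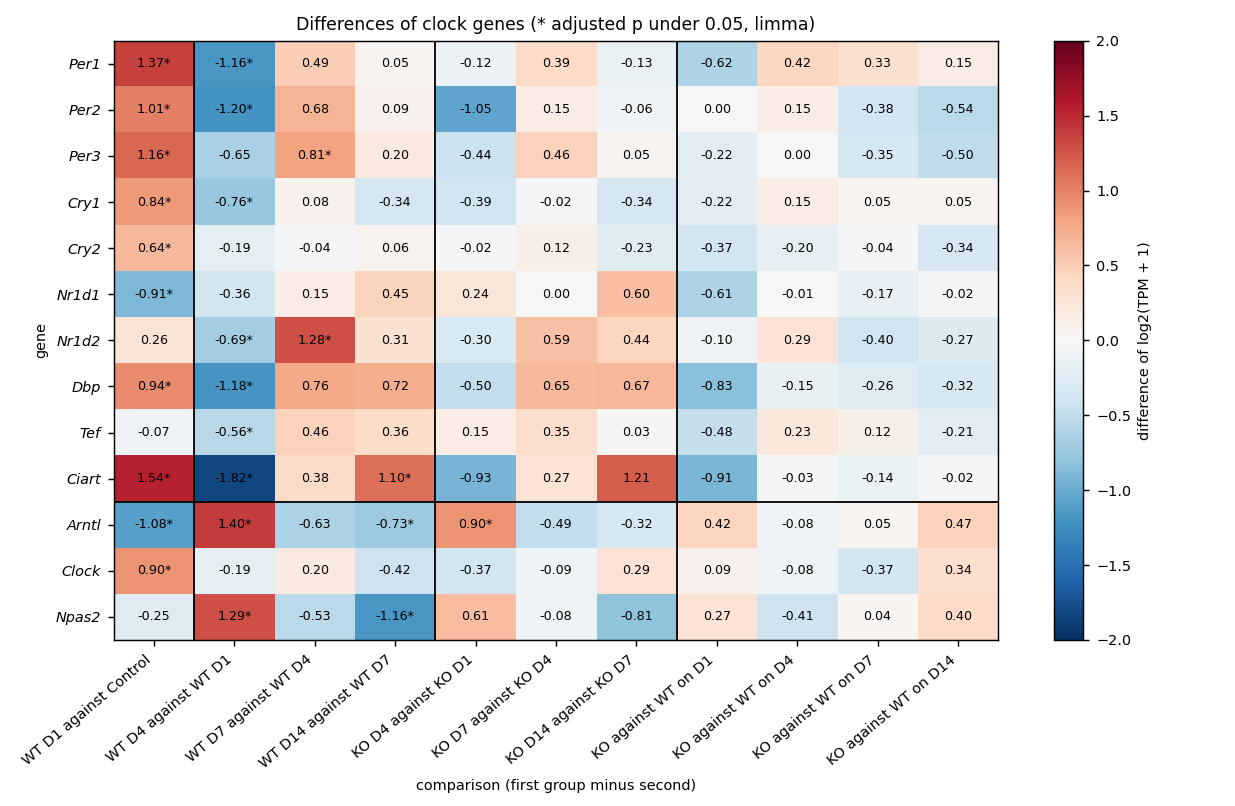
Difference of log2(TPM + 1) between groups (color and number) for the 10 clock output genes and 3 activators (rows) in 11 comparisons (columns, first group minus second), with a star for an adjusted p under 0.05 in limma. The column of WT D4 against WT D1 has 7 starred members, all below 0, and the 4 columns of KO against WT have none.

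To ask whether genotype changed the clock outputs, KO and WT libraries were compared on each day. No member was called on any day. On D1, 0.00636% of all genes were called, and on D4, D7 and D14 the share was 0%. At an unadjusted p under 0.05 the limma counts of members were 4 for D1, 0 for D4, 1 for D7 and 1 for D14, where 5.38%, 22.7%, 3.06% and 2.06% of all genes passed. Libraries of the genotypes did not overlap for 2 members (D1), 0 (D4), 2 (D7) and 0 (D14), where the share of all genes without overlap was 6.71%, 14%, 16.5% and 8.42%.

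On D1 the members with an unadjusted p under 0.05 were lower in KO. Ciart was 5.49, 5.23 and 12.8 TPM in WT and 3.33, 4.34 and 2.62 in KO (-0.91, SE 0.36, adjusted p = 0.873, limma). Per1 was 26.9, 28.4 and 34.2 TPM in WT and 19, 16.1 and 22.5 in KO (-0.62, SE 0.29, adjusted p = 0.873, limma). In both genes every KO library was below every WT library. Dbp (-0.83, SE 0.32) and Tef (-0.48, SE 0.192) overlapped: Dbp was 70.1, 43.5 and 111 TPM in WT and 37.4, 53.4 and 28.9 in KO. Per2, in contrast, was 5.04 ± 0.752 TPM in WT and 5.03 ± 0.619 in KO. Arntl was 3.71, 4.36 and 4.59 TPM in WT and 6.27, 6.51 and 5.22 in KO, higher in each KO library (0.42, SE 0.21, adjusted p = 0.873, limma). Of the 10 members, 9 had a negative difference on D1, with a median of -0.423 on the log2 scale beside 0.09 for all genes.

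In WT D1, 1 library stood apart in the members and in tissue markers. WT D1 replicate 3 had the highest value of its group for 9 of the 10 members, whereas 21.5% of all tested genes were highest in it. Its summed fibre markers were 150600 TPM and its leukocyte markers 857, beside 88470 and 70590 and 2651 and 4297 in the other WT D1 libraries. In KO D1 the fibre markers were 56030 to 80700 TPM and the leukocyte markers 3318 to 7186. The part of this in the differences of the members was not tested. Without WT D1 replicate 3 the differences were -0.54 for Ciart, -0.52 for Per1, -0.50 for Dbp and -0.25 for Tef on the log2 scale, and none was called. For Ciart and Per1 the remaining WT D1 libraries were above every KO D1 library. This follows from the separation of all libraries given above and adds nothing to it. If the WT D1 libraries were of the batch of the control muscle, batch and genotype cannot be told apart on D1.

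On D4 no member differed at an unadjusted p under 0.05. Dbp was 26.2, 39.5 and 26.6 TPM in WT and 25.5, 20.4 and 38.2 in KO, and Ciart was 1.37 ± 0.513 and 1.39 ± 0.875. On D7 Nr1d2 was 32.8, 29.1 and 27.9 TPM in WT and 25.4, 18.7 and 23.5 in KO (-0.40, SE 0.174, adjusted p = 0.776, limma), and Per3 was 7.22, 6.05 and 5.43 in WT and 5.25, 4.26 and 4.47 in KO. Both were lower in every KO library. With quality weights 1 member, Dbp, was called on D7, where 3.39% of all genes were. On D14 Per3 was 5.63, 9.54 and 7.11 TPM in WT and 3.82, 7.25 and 4.01 in KO, with overlap (-0.50, SE 0.235, adjusted p = 1, limma).

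Averaged over the 4 days no member was called, where 0.00636% of all genes were, and 3 members had an unadjusted p under 0.05, as did 3.54% of all genes. These were Per3 (-0.27, SE 0.117), Cry2 (-0.23, SE 0.107) and Dbp (-0.39, SE 0.16), each with an adjusted p of 0.861 in limma. The F test of whether the KO minus WT difference changed between days called 0 members and 0% of genes, and 0 members passed an unadjusted p of 0.05, where 7.65% of genes did. The fall of members from D1 to D4 in WT and the absence of calls in KO are therefore not shown to differ between genotypes, and Nr1d2 had the lowest unadjusted p of this test (0.0579, limma).

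A ratio of 2 genes within a library does not change when the whole library is rescaled, so members were also expressed relative to Arntl, the activator gene that normally runs opposite to them. These ratios are described without a test, and all share Arntl as denominator. The limit set by the unknown batch of the WT D1 libraries holds for every comparison of their ratios. In WT D1 the ratio was above control in every library for 9 of 10 members, but 90.3% of all tested genes had such a ratio, so this count reflects Arntl. Nr1d1 was the exception, with 8.9 ± 1.73 in control and 11.3 ± 3.17 in WT D1 (SD, n = 3). Dbp over Arntl was 3.96, 5.71 and 1.99 in control and 18.8, 9.96 and 23.9 in WT D1. Per1 over Arntl was 1.11 ± 0.086 in control and 7.19 ± 0.513 in WT D1.

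Along repair the ratio fell and rose again. From D1 to D4 all 10 members had a lower ratio without overlap in WT and all 10 in KO, where 65.3% and 65.7% of all genes had. From D4 to D7 the ratio rose without overlap for 10 members in WT and 2 in KO (Per1 and Nr1d2), where 40.1% and 10.2% of genes did. From D7 to D14 it rose for 5 members in WT (Nr1d1, Nr1d2, Dbp, Tef and Ciart) and 3 in KO (Nr1d1, Nr1d2 and Ciart), where 18.8% and 13% of genes did. Dbp over Arntl was 17.7 ± 7.19 in WT D1, 2.45 ± 0.806 in WT D4, 6.58 ± 0.531 in WT D7 and 22.1 ± 11.8 in WT D14 (SD, n = 3). In KO it was 6.57 ± 1.43, 2.49 ± 1.39, 5.91 ± 3.4 and 11 ± 2.67. The means of both genotypes were lowest on D4, and those of WT D1 and WT D14 were highest.

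Between genotypes the ratio was lower in every KO D1 library than in every WT D1 library for 9 of 10 members, where 24.9% of all genes were. Dbp over Arntl was 18.9, 9.98 and 24.2 in WT D1 and 5.97, 8.21 and 5.54 in KO D1. Per1 over Arntl was 7.26, 6.52 and 7.44 in WT D1 and 3.03, 2.47 and 4.3 in KO D1. Per2 was the exception, since 1 WT library (0.911) lay within the KO range of 0.694 to 0.931. On D4 the ratio was higher in KO without overlap for 1 member, Cry1, beside 2.12% of genes, on D7 it was lower for 2, Per3 and Nr1d2, beside 17.9%, and on D14 lower for 1, Nr1d1, beside 7.58%. Since these ratios share a denominator the 9 members are not 9 separate observations. Whether the groups were collected at different hours, at which the same ratios would differ in healthy muscle, was not tested, as no hour is known.

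**Figure D4:**
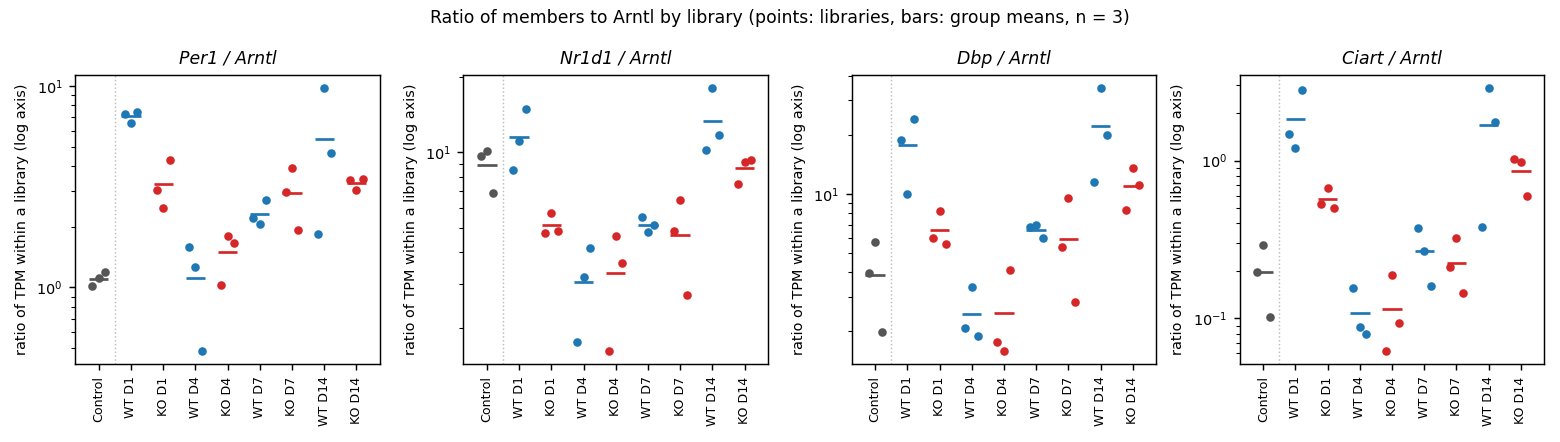
TPM of Per1, Nr1d1, Dbp and Ciart divided by TPM of Arntl in the same library (log axis), with libraries as points and group means as bars (n = 3; control grey, WT blue, KO red). The ratios of WT D1 lie above those of KO D1 in all 4 panels, and the D4 groups hold the lowest Dbp and Ciart means.

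In WT D14, 1 library was at the low end of its group in most members. Replicate 1 had the lowest value of the 3 libraries for 9 of 10 members and the highest for Nr1d1, whereas 19.7% of all tested genes were lowest in it. Per2 was 1.14 TPM there and 6.56 and 4.47 in the others, Ciart was 2.58 beside 8.08 and 7.44, and Per1 was 12.4 beside 27.3 and 19.8. Arntl was highest in that library, with 6.76 TPM beside 2.79 and 4.25. Its fibre markers (111000 TPM) were close to those of the others (111600 and 109500). The KO D14 libraries held 6.32, 6.38 and 6.52 TPM of Arntl and 2.36, 2.37 and 1.55 of Per2. Leaving out WT D14 replicate 1 gave no call of a member in KO against WT on D14. Such a pattern was not particular to this library. KO D7 replicate 3 was lowest for 7 members, beside 18.5% of all tested genes, and had 10.75 TPM of Arntl beside 7.75 and 6.67. WT D7 replicate 3 was lowest for 8 members, beside 44.9% of genes, and WT D14 replicate 2 highest for 8, beside 46.5%.

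Replicates of a group were farther apart than for most genes in some members and closer in others. The SD within groups on the log2 scale was 0.48 for Per2, 0.463 for Ciart, 0.431 for Nr1d1 and 0.417 for Dbp, at percentiles 80.2, 78.3, 74.2 and 71.9 of all 15718 tested genes. Cry1 was at the other end, with 0.146 and percentile 5.6, followed by Nr1d2 with 0.207 and percentile 19.3. Between these ends were Per1, Per3, Cry2 and Tef, at percentiles 64.1, 42.5, 35.6 and 27.4. The narrow spread of Cry1 and Nr1d2 goes with SEs of 0.144 and 0.174 on the log2 scale.

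With group means subtracted, some members varied together over the 24 libraries. Pearson's r is given here as a description, and the points share library, tissue composition and scaling. Dbp and Tef had an r of 0.914, and Cry2 had 0.795 with Dbp and 0.77 with Tef. Per3 and Nr1d2 had 0.859, and Per2 had 0.71 with Nr1d2 and 0.673 with Per3. Per3 was also at 0.601 with Dbp, 0.553 with Cry2 and 0.395 with Tef, so these were not separate sets. Nr1d1 did not follow its paralogue Nr1d2 (-0.365) and was at -0.594 with Per2. Arntl was negative with 8 members, from -0.499 (Per1) to -0.264 (Ciart), and slightly positive with Nr1d1 (0.189) and Cry1 (0.085).

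**Figure D5:**
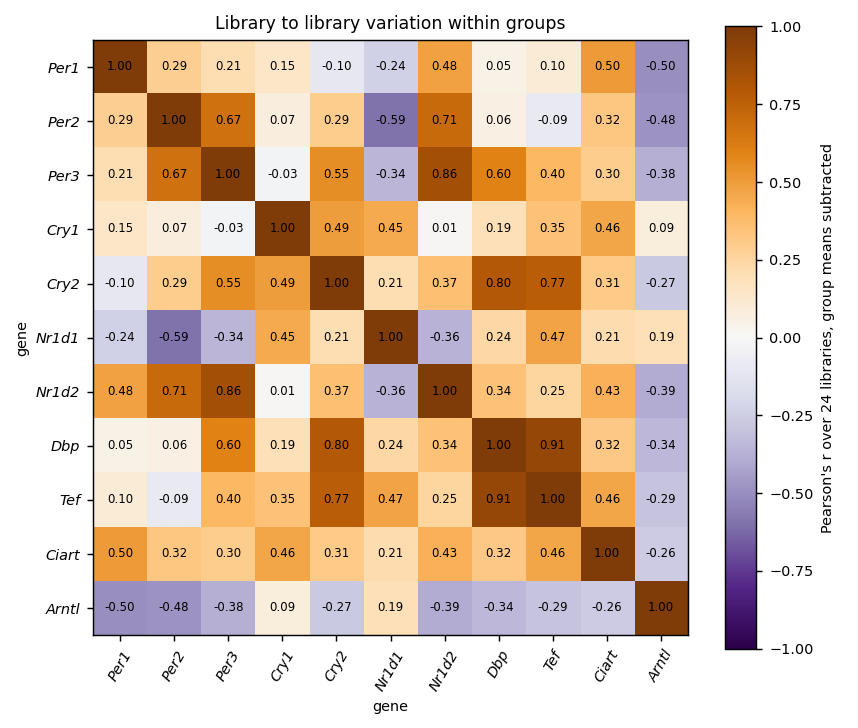
Pearson's r of log2(TPM + 1) over the 24 injured libraries after the mean of each group was subtracted, for the 10 clock output genes and Arntl (color and number). Dbp, Tef and Cry2 are at 0.77 to 0.914 with each other, and Per2, Per3 and Nr1d2 at 0.673 to 0.859.

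Genes with a pattern like that of Dbp were sought among 15282 named genes other than the members after the mean of each day was subtracted. The highest r over 24 libraries were those of Capn3 (0.831), Pnck (0.807), Rhobtb2 (0.79), Lrtm1 (0.781) and Cntnap2 (0.771). Capn3 encodes a calpain of muscle fibres. The lowest were Cd36 (-0.753), Sh2d3c (-0.741), Wdhd1 (-0.738), Esam (-0.728) and Cyyr1 (-0.723), of which Cd36 encodes a fatty acid transporter and Esam an endothelial adhesion molecule. With group means subtracted instead, the highest were Cntnap2 (0.892), Trim55 (0.882), Sort1 (0.84), Tmod1 (0.824) and Eef2k (0.823), so that Cntnap2 alone was in both sets of highest genes, and none of the lowest genes was shared. With day means subtracted, Tef (0.849) and Cry2 (0.824) were highest and Per2 (0.133) and Per1 (0.165) lowest among the members, and Arntl was at -0.513.

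Ordered by mean TPM over the 8 injured groups, WT D1 was highest for Per1, Per2, Cry1, Cry2 and Ciart and WT D14 for Per3, Nr1d1, Nr1d2, Dbp and Tef. WT D4 was lowest for Per1, Per2, Per3, Nr1d2, Tef and Ciart, KO D4 for Dbp, KO D1 for Nr1d1, WT D14 for Cry1 and KO D14 for Cry2. The highest mean was 5.72 times the lowest for Ciart, 3.18 times for Nr1d2, 3.1 times for Dbp and 1.5 times for Cry2, and the libraries of these end groups did not overlap for any member. Of the 7 pairs of neighbours in each order, the libraries overlapped in 7 pairs for 7 members, in 6 for Per1 and Cry1 and in 5 for Nr1d2. The order was set by the same values, which puts close means side by side and the farthest at the ends. Neither the overlap of neighbours nor the separation of the end groups can therefore show whether groups differed.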

How the data were processed

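The sample titles gave the group and the replicate number of every library. The authors deposited TPM per gene and library. The genome build mm10 is named in the submitters' processing notes, and the aligner, the counting tool and strand use are not given in the sources used here. The members and gene lists were chosen with earlier results of these data known, and the same samples gave both.

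Values were analysed as log2(TPM + 1), which understates changes of genes with low TPM. Genes with at least 1 TPM in at least 3 libraries were tested with limma 3.58.1 in R 4.3.3 (group means, contrasts, empirical Bayes with a variance trend), with Benjamini-Hochberg adjustment over all tested genes, and the fit was tested on simulated data. Members were always named, as were Arntl, Clock, Npas2 and Nfil3. Of other lists at most 4 called genes with the largest differences were named, and for Dbp the 5 genes with the highest and the 5 with the lowest r. Percentiles and ratios were computed in Python 3.11.15 with pandas 2.3.3. Titles do not state that libraries came from separate animals, so the design text, which calls them biological triplicates, is the source, and p-values measure the spread between these libraries. With 3 against 3 an exact permutation test could not go below 0.1 and was not used.

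Same-numbered libraries deviated together (every correlation over 0.1) for KO D4 with KO D1 (0.192 to 0.377) and KO D7 with KO D4 (0.13 to 0.442), where the replicate block left the count of called members at 0. Alternatives were a pseudocount of 0.1, no filter, a filter of 5 TPM, median-of-ratios scaling, quantile normalization, removal of the 50 most abundant and the mitochondrial genes, library quality weights (whose estimation warned of incomplete convergence), a replicate block, a fit of only the groups compared, and each library left out. Promoter windows were from RefSeq and gene overlaps from GENCODE release M21, both on the build GRCm38, and Per2 had no window. Some genes of the other lists are not reported here.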

Additional observations from a re-analysis of the deposited data

How the results depend on the processing

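The counts of called members moved with the processing as follows, with the share of all genes called in the same fit in brackets. For fits with 1 library left out that share is not given. Whether all genes moved alike cannot be read from those counts. For WT D1 against control (8 called, 61.1%) the count was 5 without a filter (25.8%) and 6 with a filter of 5 TPM (65.5%). It was 2 with median-of-ratios scaling (42.5%), 1 with quantile normalization (40.1%) and 4 without abundant genes (45%). With quality weights it was 9 (83.2%), and leaving out 1 library gave 5 to 8. For WT D4 against WT D1 (7 called, 19.8%) it was 5 without a filter (9.62%) and 8 without abundant genes (23.3%). It was 2 with quality weights (17.3%) and 2 with only the groups compared in the fit (7.4%), and 4 to 7 with 1 library left out. For WT D7 against WT D4 (2 called, 12.3%) it was 1 without a filter (4.55%), 4 with quantile normalization (14.4%) and 3 without abundant genes (11%). It was 8 with quality weights (67.4%) and 1 with only the groups compared (5.78%), and 1 to 2 with 1 library left out. For WT D14 against WT D7 (1 called, 31.8%) it was 0 without a filter (10.2%) and 5 with median-of-ratios scaling (14.8%). It was 3 with quantile normalization (13.4%) and 4 without abundant genes (17.3%). It was 5 with quality weights (60.5%) and 2 with only the groups compared (50.5%), and 0 to 1 with 1 library left out. For KO D4 against KO D1 (0 called, 19.4%) it was 1 with a pseudocount of 0.1 (18.4%) and 1 without abundant genes (26.8%), and 0 to 1 with 1 library left out. For KO D14 against KO D7 it was 5, and for KO against WT on D7 it was 1, with quality weights. With these weights 50% of all genes were called in KO D14 against KO D7 and 3.39% in KO against WT on D7. The other comparisons kept 0 called members under every alternative run. In the fit with the replicate block, 7 members were called in WT D1 against control and 7, 2 and 1 in the WT steps, and the pairing changed no other count. The call lost was Cry2 in WT D1 against control (adjusted p = 0.0605, limma). These groups may hold muscle of the same mice, but the sources do not tie their numbers and same-numbered libraries correlated by 0.00213 to 0.0611. The other groups outside the 2 KO steps share only a number. Cry2 in WT D1 against control turned to -0.021 with median-of-ratios scaling and -0.156 with quantile normalization, and Cry1 in WT D14 against WT D7 turned to 0.102 and 0.277. Of 814 values of single genes under the alternatives 698 kept their direction and side of the threshold. The 814 values cover 52 results of the members, Arntl, Clock, Npas2 and Nfil3 with an unadjusted p under 0.05 in the main limma fit. A result that was not called there kept its side by staying uncalled. This count therefore does not measure how stable the calls were. The cause of the changes under the alternatives was not tested. With 3 libraries per group and TPM without read numbers, small differences of the scarce members Per2, Per3 and Ciart could not be resolved.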

Other observations

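Clock genes outside the 10 members showed the following. Nfil3 was 22.4 ± 2.38 TPM in WT D1 and 11.3 ± 4.04 in WT D14 (SD, n = 3), and in KO D14 its libraries were 19.1, 5.93 and 10.7 TPM. Hlf was 2.75 ± 1.3 TPM in WT D1, 0.74 ± 0.243 in WT D4 and 2.7 ± 1.08 in WT D14, and in KO it was 1.42 ± 0.524, 1.09 ± 0.139 and 1.85 ± 0.297. Bhlhe40 was 63.6 ± 10.5 TPM in WT D1 and 61.2 ± 1.68 in KO D1, beside 33.7 ± 3.9 and 33.4 ± 9.72 on D7. In KO muscle it fell from D1 to D4 by 0.77 on the log2 scale (adjusted p = 0.0303, limma). Nampt, an enzyme of NAD synthesis under clock control, fell from D1 to D4 by 0.99 in WT and by 0.79 in KO.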
